A study of Drosophila melanogaster with 2 samples.

Results

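The genes described here are 10 lipase and lipid droplet genes of Drosophila melanogaster, studied through the places where the nuclear receptor Hnf4 was found on chromatin. They are bmm, Hsl, Lip3, Lip4, mag, Lsd-1, Lsd-2, mdy, Lpin and Seipin, 10 of 13986 annotated protein-coding genes. A region was given to a gene when its summit, the point of highest signal, lay in the gene body or within 2 kb of it. By this rule 26 of the 5817 regions of the authors' optimal list belonged to the 10 genes. The animals were 1 transgenic line, labelled Hnf4-GFP, that carries Hnf4 with green fluorescent protein at its C terminus. Males and females were pooled as whole larvae in the third instar at the wandering stage, of unknown age in hours. Chromatin immunoprecipitation with sequencing was done on 2 biological replicates that form 1 group, with no second genotype, treatment or stage. The labels describe an antibody against the fluorescent protein, while their antibody field names Hnf4. The lists hold called regions and no reads, so the depth of each replicate is unknown. Since the chromatin came from whole larvae, weak binding in many cells and strong binding in few cannot be told apart.

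Triglyceride, the storage fat, is made in the endoplasmic reticulum and kept in lipid droplets. Lpin encodes lipin, the phosphatidate phosphatase that makes diacylglycerol, and mdy encodes diacylglycerol acyltransferase, which adds the last fatty acid. Seipin acts where droplets form. Perilipins, encoded by Lsd-1 and Lsd-2, coat the droplets and control the access of lipases. Stored triglyceride is opened by Brummer, the product of bmm and the fly relative of adipose triglyceride lipase, and by hormone-sensitive lipase, encoded by Hsl. Hnf4 is known in fly larvae for its part in moving and burning stored fat during starvation.

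The 5 regions below are shown because they lie outside untranslated regions and carry results described further on. Each is 201 bases of the dm6 build centred on the summit, read 5′ to 3′ on the plus strand from the RefSeq copy of Release 6. Capitals mark sequences that differ by 1 base from the Hnf4 site CAAAGTCCA, on either strand. The bmm regions are chr3L:14782751-14782951 and chr3L:14785593-14785793, both in an intron. The mdy region is the intronic chr2L:16818444-16818644. The Lsd-2 region is the intronic chrX:15075027-15075227, and the Lip3 region is chr3R:13372055-13372255, upstream of the gene.
bmm far intronic region: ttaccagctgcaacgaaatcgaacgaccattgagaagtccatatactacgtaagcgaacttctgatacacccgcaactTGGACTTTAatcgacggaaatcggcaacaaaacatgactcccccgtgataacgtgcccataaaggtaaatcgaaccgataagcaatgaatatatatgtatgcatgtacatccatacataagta
bmm near intronic region: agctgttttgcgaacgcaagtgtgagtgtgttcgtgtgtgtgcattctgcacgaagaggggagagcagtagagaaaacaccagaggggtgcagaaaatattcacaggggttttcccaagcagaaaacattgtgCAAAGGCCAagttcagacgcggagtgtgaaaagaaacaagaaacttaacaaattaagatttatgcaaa
mdy intronic region: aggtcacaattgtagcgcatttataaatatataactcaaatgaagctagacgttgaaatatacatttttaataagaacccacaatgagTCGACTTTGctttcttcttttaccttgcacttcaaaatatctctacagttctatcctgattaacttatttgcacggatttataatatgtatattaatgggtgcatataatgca
Lsd-2 intronic region: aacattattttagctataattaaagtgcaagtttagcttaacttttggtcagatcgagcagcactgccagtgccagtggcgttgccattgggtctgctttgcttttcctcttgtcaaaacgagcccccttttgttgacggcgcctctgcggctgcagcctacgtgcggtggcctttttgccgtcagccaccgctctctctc
Lip3 upstream region: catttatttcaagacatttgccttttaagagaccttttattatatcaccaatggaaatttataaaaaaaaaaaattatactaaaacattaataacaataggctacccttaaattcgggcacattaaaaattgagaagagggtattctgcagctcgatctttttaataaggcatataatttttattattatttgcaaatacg
Positions in the site are counted from 1 at its 5′ end, and substitutions give the base of CAAAGTCCA first. The far bmm region holds TAAAGTCCA on the minus strand, which is C1T, centred 18 bp from the summit. The near bmm region holds CAAAGGCCA, which is T6G, centred 37 bp from its summit. The mdy region holds CAAAGTCGA on the minus strand, which is C8G, centred 8 bp from its summit. No such sequence is in the windows of the Lsd-2 intronic and Lip3 regions.

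Of the 10 genes, 7 had an optimal region, against 33.0% of all protein-coding genes by the same rule. The 7 were bmm, Lip3, Lip4, Lsd-1, Lsd-2, mdy and Lpin. The genes without one were the lipase genes Hsl and mag and the droplet gene Seipin. The 10 genes had a median length of 4142 bp against 2162.5 bp for all genes, and longer genes offer a wider window. Within 1 kb of their own transcription start sites (TSSs), 7 of the 10 again had an optimal summit, against 22.9% of all genes. An optimal region that overlapped the 5817 strongest regions of each replicate was found at 6 of 10, against 27.1% of all genes, and Lip4 was the gene that dropped out. A region of the relaxed pooled list, which mixes strong regions and background, was found at 8 of 10 against 53.3%. These counts carry no test, because the genes were chosen with results of these data known and there is 1 group.

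Lsd-2, bmm and Lpin stood out among the 10 by the number of regions. Lsd-2 had 7 optimal summits and bmm and Lpin had 6 each, while 1.20% of all protein-coding genes had 6 or more. The nearest TSS was that of another gene for 4 of the Lsd-2 summits, 1 at bmm and 1 at Lpin. At Lsd-2, 2 summits shared a single interval. mdy had 3, Lsd-1 had 2, and Lip3 and Lip4 had 1 each. Among the 4617 genes with any optimal summit the median was 1. Per 10 kb of window, Lsd-2 had 6.31 summits, a density reached by 0.450% of all genes. The density was 4.31 for bmm, reached by 2.11% of genes, and 2.94 for Lsd-1, reached by 6.95%. The longer Lpin came after them at 2.53, reached by 8.26%, so it stood out by number and less so by density. mdy had 2.10, Lip3 1.77 and Lip4 1.22, against a median of 1.75 over genes with any.

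**Figure D1:**
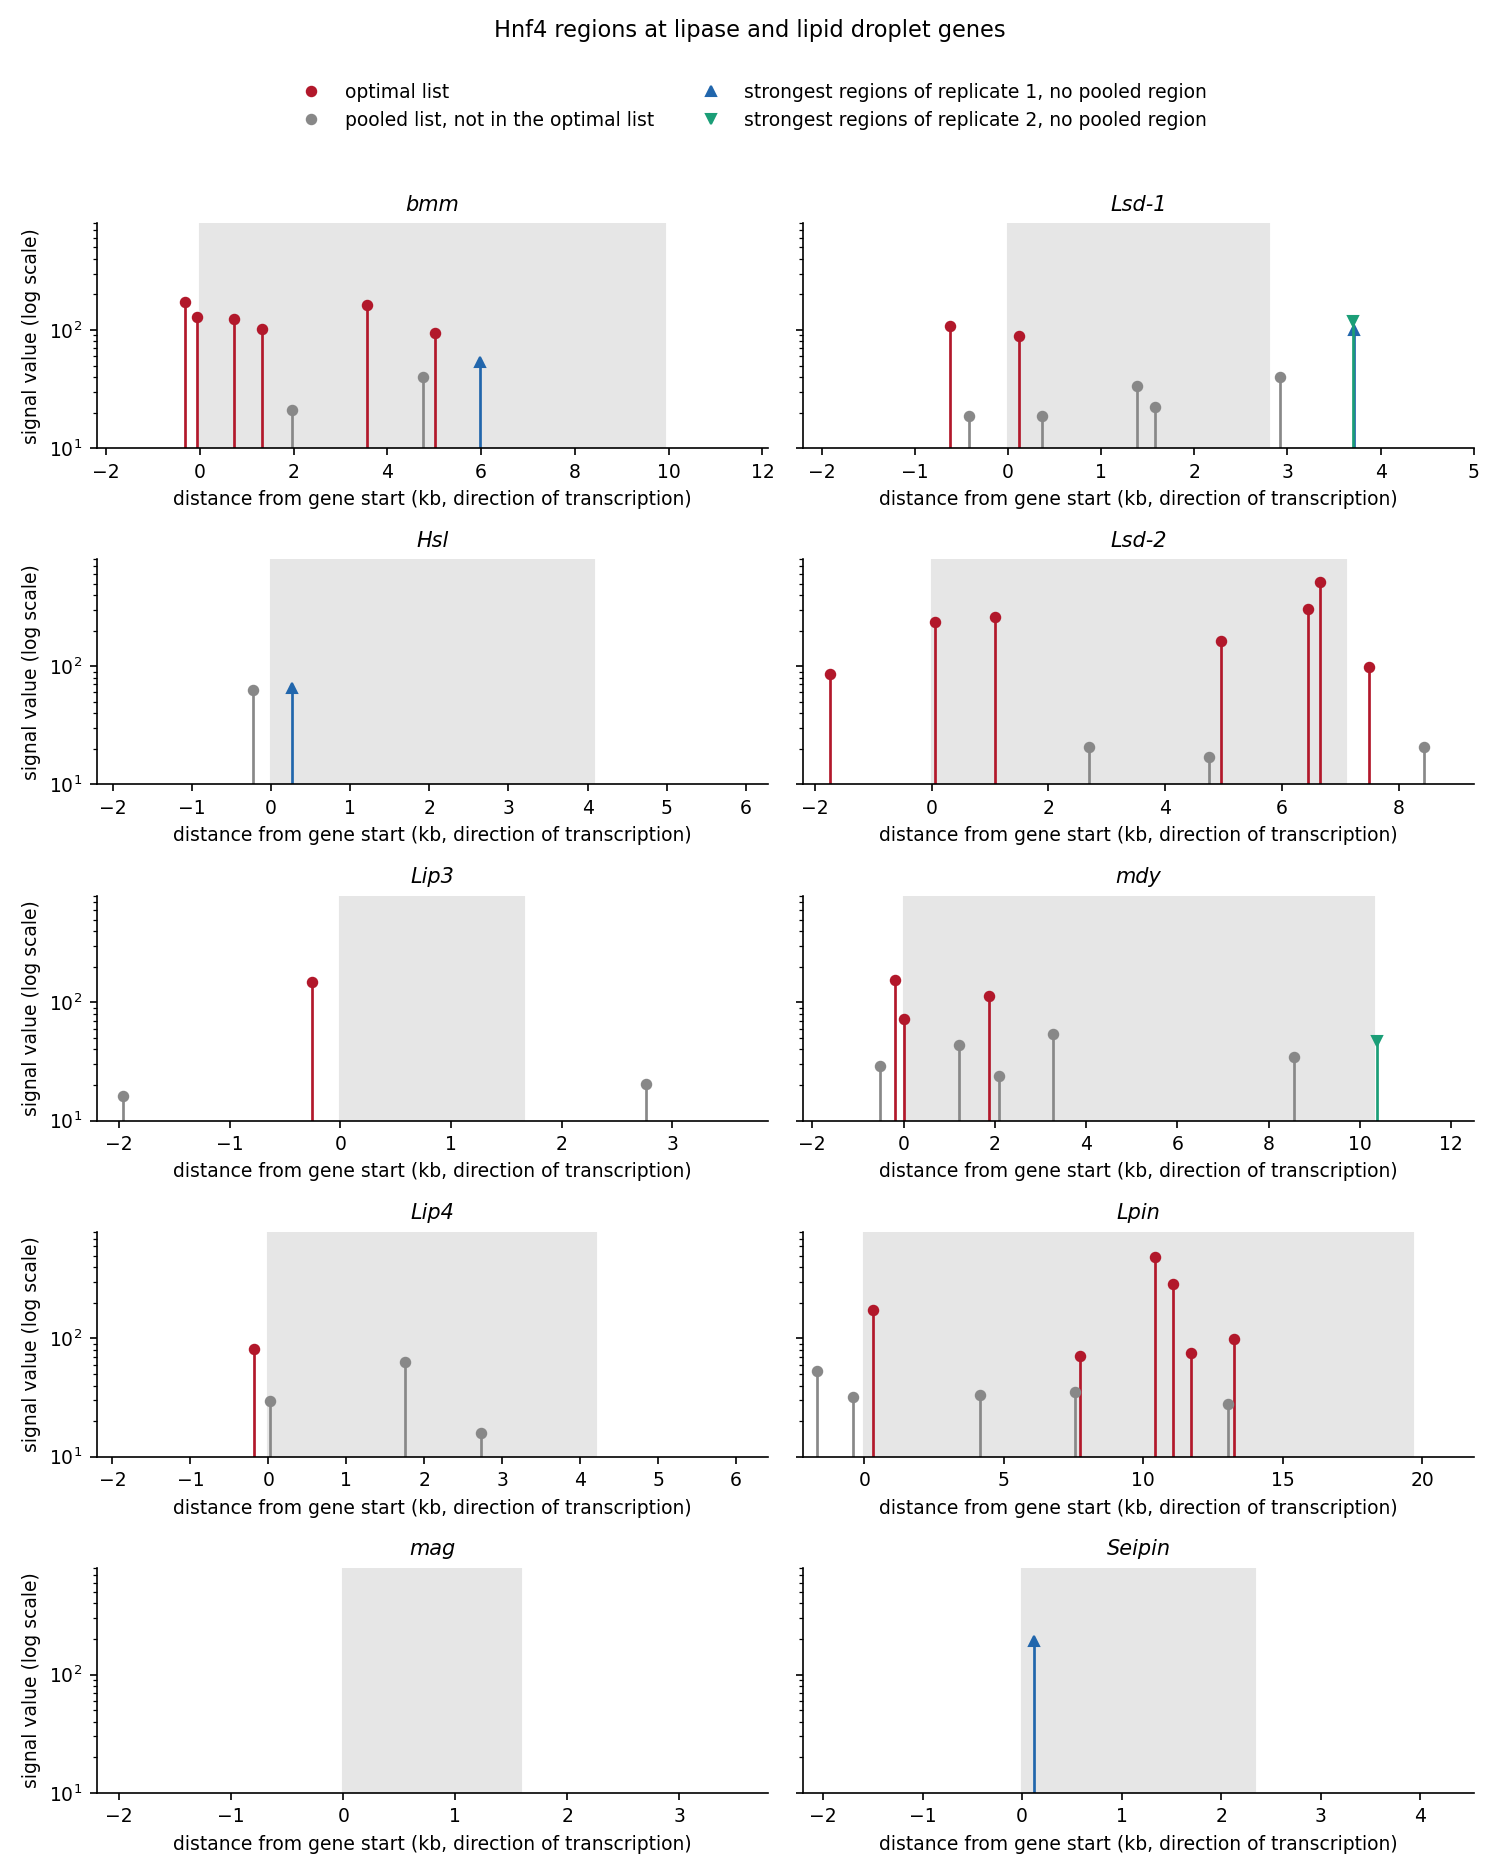
Signal value of each region (log scale) against its distance from the start of the gene in kb, for the 10 genes; the grey band is the gene body. Red points are optimal regions, grey points are other pooled regions, and triangles are strong regions of a replicate with no pooled region, of which those at Lsd-1 and Hsl overlap a region of the other replicate. Lsd-2, bmm and Lpin carry 7, 6 and 6 optimal regions, mag carries none of these kinds, and Seipin carries a single replicate 1 region of 194.

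Signal values, the authors' measure of enrichment in each region, were spread over most of the optimal list. The 26 regions had a median of 127 and ran from 71.6 to 517, against a median of 114 for all optimal regions. Of the 26, 53.8% were in the strongest 50% of the list and 23.1% in the strongest 25.0%, so the group as a whole sat near the middle of the list. By its strongest region, the order was Lsd-2 at rank 172, Lpin at 196, bmm at 1545, mdy at 1825, Lip3 at 1921, Lsd-1 at 3177 and Lip4 at 4500. In the separate replicates the leading Lsd-2 region ranked 110 and 427 and the leading Lpin region 155 and 311, so these ranges overlap. The leading bmm region ranked 2423 and 1206 and the leading mdy region 1793 and 1720, which also overlap. The other neighbours in this order did not overlap in their replicate ranks, but each range rests on 2 values. Among genes that are not neighbours, the Lip3 ranks of 2171 and 2390 lay inside the bmm range.

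The triglyceride lipase gene bmm (FBgn0036449, 3L 14776496 to 14786412, minus strand) had a chain of regions from just upstream of its start to the middle of the gene. The strongest had its summit at 14786737, 325 bp upstream of the bmm TSS and 54 bp from the TSS of the divergent neighbour Tdrd3. Its signal value was 174 in the optimal list, 83.1 in replicate 1 and 88.1 in replicate 2. A second upstream region, with its summit 68 bp from the bmm TSS, had 130 in the optimal list and 85.7 in replicate 1, with no overlapping region in replicate 2. The other 4 summits were intronic, from 719 to 5006 bp downstream of the TSS. Among these the far intronic region printed above, 3561 bp downstream, was the strongest, at 162 in the optimal list, 113 in replicate 1 and 58.0 in replicate 2. The near intronic region printed above had 125 in the optimal list, 68.1 in replicate 1 and 50.2 in replicate 2. In replicate 1 the far intronic region was thus the highest at the gene, and in replicate 2 the upstream region shared with Tdrd3 was. All 4 intronic regions overlapped the strongest regions of both replicates.

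Lip3 and Lip4, which encode relatives of acid lipases, had a single optimal region each, just upstream of the start. At Lip3 (FBgn0023495, 3R 13370240 to 13371904, minus strand) the summit lay 251 bp upstream of the TSS. Its signal value was 150 in the optimal list, 88.7 in replicate 1 and 55.8 in replicate 2, at ranks 2171 and 2390 of the replicate lists. At Lip4 (FBgn0032264, 2L 10527572 to 10531778, plus strand) the summit lay 179 bp upstream of the first TSS. Its value was 82.0 in the optimal list, 59.0 in replicate 1 and 25.7 in replicate 2, and its rank of 6516 in replicate 2 was outside the 5817 strongest. Lip4 also had a pooled region of 62.9 in a 5′ untranslated region, 86 bp from a later TSS, at rank 6254.

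Hsl and mag had no optimal region. The pooled list had nothing at mag (FBgn0036996, 3L 20460683 to 20462274), which encodes a lipase secreted into the gut. Weak regions were listed there in replicate 1 at 14.5 and 14.9 and in replicate 2 at 9.38, below the median of 20.9 for the replicate 1 list and of 14.1 for the replicate 2 list. Hsl (FBgn0034491, 2R 20257650 to 20261726) had 1 pooled region of 62.5 at rank 6304, below the lowest optimal value of 66.6. That summit lay 224 bp from an Hsl TSS and 36 bp from the TSS of the neighbour Ate1. Replicate 1 had a further region in the 5′ untranslated region of Hsl at 65.0, rank 3551. It overlapped the replicate 2 region of 26.3, rank 6337, and had no overlapping region in the pooled list used here. The pooled summit itself lay in a replicate 1 region of 34.5 at rank 8394 and in a replicate 2 region of 31.8 at rank 5010. Of these, the replicate 2 region was among the 5817 strongest of its replicate and the replicate 1 region was not. Neither site at Hsl was thus among the 5817 strongest in both replicates. Hsl was thus listed in both replicates, and whether the gap in the pooled list bears on its lack of an optimal region was not tested. Around the limit of the optimal list, the nearest values inside it were 71.6 at Lpin and 72.6 at mdy, and the nearest outside it were 62.9 at Lip4 and 62.5 at Hsl.

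The perilipin genes differed from each other. Lsd-2 (FBgn0030608, X 15069127 to 15076220, minus strand) had the strongest region of the 10 genes, and it lay at the far end of the gene. A 750 bp interval held 2 summits in its 3′ untranslated region, 6645 and 6444 bp downstream of the TSS. The first had 517 in the optimal list, 364 in replicate 1 and 151 in replicate 2. The second had 305 in the optimal list, 211 in replicate 1 and 71.5 in replicate 2. Another summit in the 3′ untranslated region, 4958 bp downstream, had 163. At the start of the gene, the summit 55 bp downstream of the TSS had 236 in the optimal list, 128 in replicate 1 and 99.9 in replicate 2. The intronic region printed above, 1093 bp downstream, had 259 in the optimal list, 171 in replicate 1 and 87.5 in replicate 2. Both ends of Lsd-2 were thus strong in both replicates, and the ratio between the ends was larger in replicate 1. Weaker regions flanked the gene, one of 86.6 upstream and one of 99.1 past its end, in the coding exon of dob, a lipase gene related to bmm. The nearest TSS to the 4 summits at that end was that of dob, at 1720 to 4255 bp.

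Lsd-1 (FBgn0039114, 3R 23763857 to 23766662, plus strand) had 2 weaker regions at its start. The first lay 621 bp upstream of the TSS, in the 5′ untranslated region of the neighbour udt and 27 bp from the udt TSS. It had 107 in the optimal list, 62.7 in replicate 1 and 55.0 in replicate 2. The second, 117 bp downstream of the Lsd-1 TSS, had 88.2 in the optimal list and 71.8 in replicate 1, but 9.42 in replicate 2 at rank 26798. Of the pair, the region next to udt was thus among the strongest regions of both replicates, and the region at the start of Lsd-1 was so in replicate 1. Past the 3′ end of Lsd-1, both replicates listed a stronger region than either of these, 99.3 at rank 1777 in replicate 1 and 120 at rank 696 in replicate 2. It lay 85 bp from the TSS of CG10214 by its replicate 1 summit and had no overlapping region in the pooled list used here. Of 4246 strong replicate 1 regions that overlapped a strong replicate 2 region, 88, or 2.07%, had no pooled region.

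**Figure D2:**
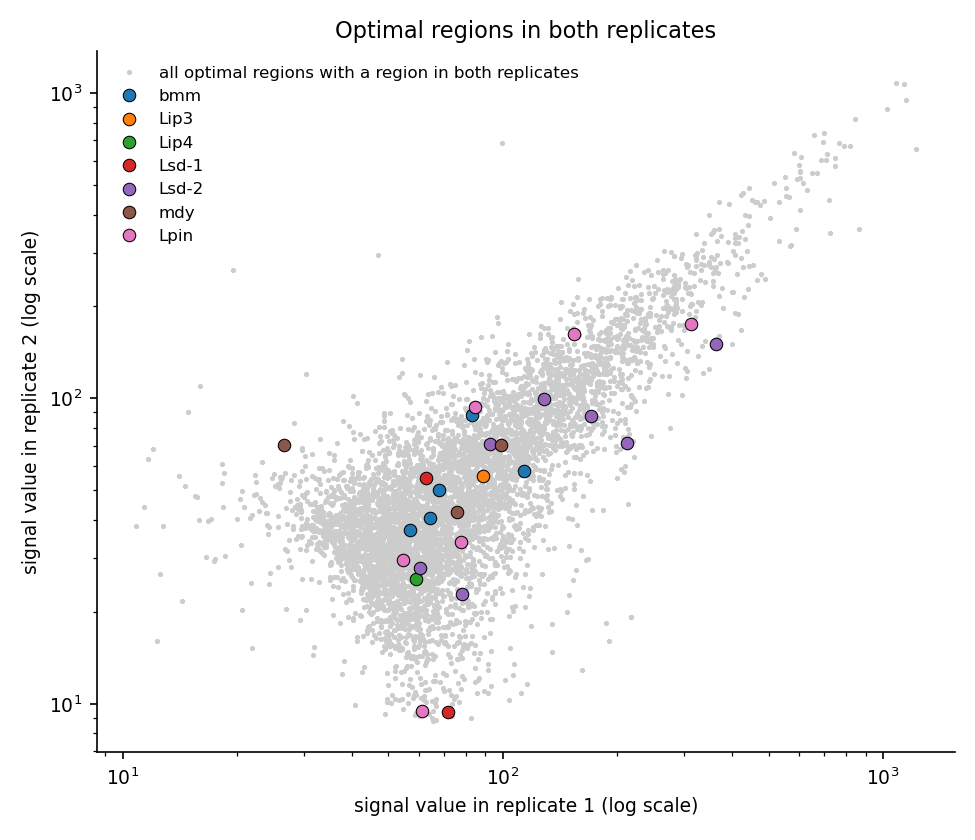
Signal value in replicate 2 against that in replicate 1 for optimal regions with a region in both replicates, both axes on a log scale; grey points are all such regions and coloured points those at the 7 genes. The weaker Lsd-1 region and the Lpin region near kermit sit at the lower edge, with 9.42 and 9.48 in replicate 2 against 71.8 and 61.2 in replicate 1.

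The genes of triglyceride synthesis carried regions at several of their starts. Lpin (FBgn0263593, 2R 8136986 to 8156654, minus strand) has 4 annotated TSSs, and its strongest regions lay on either side of an internal one. The summit 239 bp upstream of that TSS had 486 in the optimal list, 313 in replicate 1 and 175 in replicate 2. The summit 390 bp downstream of it had 292 in the optimal list, 154 in replicate 1 and 162 in replicate 2. Near the first TSS, a region had 175 in the optimal list, 84.4 in replicate 1 and 93.8 in replicate 2, inside the 5′ untranslated regions of Lpin and of the overlapping gene kermit. These 3 were high in both replicates. The lowest of the 6, at 71.6, lay 253 bp from a kermit TSS and had 61.2 in replicate 1 and 9.48 in replicate 2.

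mdy (FBgn0004797, 2L 16816660 to 16826964, plus strand) overlaps the gene CG13280. Its strongest summit, 187 bp upstream of the TSS, had 155 in the optimal list, 98.9 in replicate 1 and 70.1 in replicate 2. A second summit 13 bp downstream of the TSS had 72.6 in the optimal list and 26.5 in replicate 1. In replicate 2 both fell in the same region of 70.1, so they are not separate there. The intronic region printed above, 1436 bp from the nearest mdy TSS, had 113 in the optimal list, 75.6 in replicate 1 and 42.6 in replicate 2.

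Seipin (FBgn0040336, X 2619799 to 2622140, plus strand) was listed in 1 replicate. Replicate 1 had a region of 194 at rank 481 in the 5′ untranslated region, 117 bp from the TSS. No region of replicate 2 or of the pooled list had its summit in the Seipin window. Among the 5817 strongest regions of replicate 1, 350, or 6.02%, had no overlapping pooled region, so Seipin was not alone in this. Whether Hnf4 was at Seipin cannot be told from 1 replicate.

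How often the replicates listed the same places depended on the overlap asked for. With at least 1 bp, of the 26 regions, 25 overlapped some region of each replicate, 96.2% against 97.1% of all optimal regions. For the strongest regions of each replicate the figures were 20 of 26, or 76.9%, against 71.0%. A replicate region could count for more than 1 summit here. The mdy summit of 72.6 was counted although the replicate 1 region nearest to it ranked 11416. With overlap of at least 50% of both regions the share was lower than elsewhere, 14 of 26 or 53.8% against 73.4% of all optimal regions, and this difference was not tested. The 26 had a median width of 234.5 bp.

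By position, 11 of the 26 summits were in introns of the gene, 7 upstream, 4 in 5′ untranslated regions, 3 in a 3′ untranslated region and 1 downstream. The 3 in a 3′ untranslated region were all at Lsd-2. Summits within 1 kb of any protein-coding TSS made up 57.7% of the 26 and 53.8% of all optimal regions. The 26 were picked for lying in or near a gene and the full list was not, so these shares are not like for like. The nearest TSS belonged to the gene itself for 19 of the 26. For the other 7 it belonged to dob, Tdrd3, udt or kermit, so these regions cannot be assigned to the lipid gene by distance.

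Exact matches to the Hnf4 site were few at these genes. CAAAGTCCA, on both strands within 100 bp of a summit, was found at 1 of the 26, the Lpin region of 292, and at 1.05% of the optimal regions on nuclear chromosomes. The Hnf4 direct repeat, a longer receptor motif that can contain this site, was at none of the 26 and at 0.707% of those regions. With up to 1 mismatch to CAAAGTCCA, 5 of the 26 matched, against 7.86%. These were the 2 bmm and the mdy regions printed above, the Lpin region, and the region in dob beside Lsd-2, whose CAAAGTCAA is C8A. AAGTCCA, the end of the site, was at 2 of the 26, in the far bmm intronic region and at Lpin, against 3.65%. AGGTCA, the core that nuclear receptors share, was at the intronic mdy region and at the strongest Lpin region, 2 of the 26 against 3.41%. TATCGATA, the DNA replication-related element, and GGTCACAC, the M1BP site, were each at 1 region, the one 68 bp upstream of the bmm TSS, against 4.03% and 2.10%. GAGAGAG, bound by GAGA factor, was at 2 Lsd-2 regions against 6.07%. AGATAAG, which factors of the GATA family bind, was at 1 bmm and 1 Lsd-2 region against 2.93%. With 26 regions, a difference of 1 match moves a share by 3.85 percentage points, and the strongest Lsd-2 summit held none of these motifs within 100 bp.

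Among 48 further genes of neutral lipid metabolism, 25 had an optimal region by the same rule, 52.1% against the 33.0% of all genes. Here too longer genes offer a wider window. Within 1 kb of their own TSSs, 20 of the 48 had an optimal summit, against 22.9% of all genes. Of 9 genes listed under triglyceride synthesis, 6 had an optimal region by the 2 kb rule. The highest was Cds at 278, although its enzyme makes CDP-diacylglycerol, which is not a step toward triglyceride. Gpat4, for a glycerol-3-phosphate acyltransferase, had 241. Agpat2, for the next acyltransferase, had 147, with its summit nearest to the TSS of prg. Agpat4 and CG1941 had none. Of other lipases 6 of 13 had one, and PAPLA1, for a phospholipase, was the highest at 506, with its summit 114 bp from its own TSS and still nearer to that of Rbsn-5. CG8093 had 315 at a summit nearest to the TSS of row. Lip1 and Lip2 shared a single region of 183, nearest to the TSS of CG6415. CG11600 and CG17191 had none. Of lipid droplet proteins and droplet transport genes 2 of 7 had one, Pcyt1, for the enzyme that makes CDP-choline, at 166, and klar, which acts in droplet transport, at 152. The klar summit lay 21193 bp from a klar TSS, nearest to the TSS of CG34268. Fitm and Jabba were without one, although the pooled region at Jabba had 62.9.

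Fatty acid synthesis and desaturation had optimal regions at 5 of 10 genes, but the highest values were at the edges of the windows. The region of 1391 counted for ATPCL, for ATP citrate lyase, lay 7767 bp from its TSS, past its end, and nearest to the TSS of CG8320, with 695 in replicate 1 and 693 in replicate 2. The region of 1170 counted for Desat1, for a fatty acid desaturase, lay 5137 bp from its TSS, also past its end, and nearest to that of CG18549, with 719 in replicate 1 and 447 in replicate 2. bigmax, for the partner of the sugar sensor Mondo, had 363, with its summit nearest to the TSS of Hmu. ACC and FASN1, for the first enzymes of fatty acid synthesis, had neither an optimal nor a pooled region. In the control of lipolysis 6 of 9 had one, with sug, for a sugar-responsive transcription factor, at 362, Hnf4 itself at 262 and Sik3, for a kinase, at 191. Akh, for the hormone that starts fat release, had no pooled region, and AkhR, for its receptor, had pooled regions of up to 43.0 and no optimal one.

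**Figure D3:**
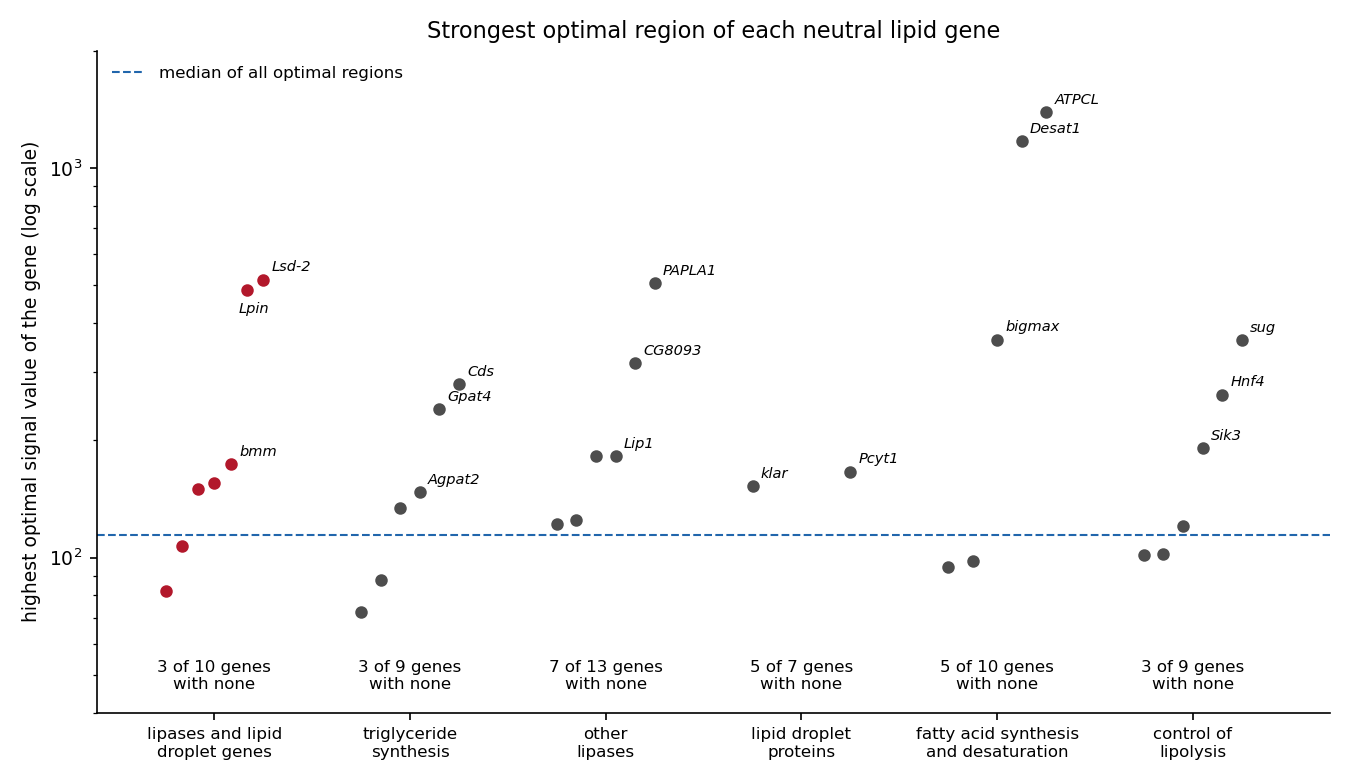
Signal value of the strongest optimal region (log scale) of each gene with one, for the 10 lipase and lipid droplet genes in red and for 48 further neutral lipid genes in grey by role; the dashed line is the median of all optimal regions, 114. Lsd-2 and Lpin, at 517 and 486, are near PAPLA1 at 506, and the numbers of genes with no optimal region stand below each group.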

How the data were processed

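Hnf4 regions were mapped in 2 biological replicates, and 4 dm6 lists were used: a relaxed list per replicate (29999 and 30000 regions), a relaxed pooled list (30000) and an optimal list (5817). Per the deposited file descriptions, these are narrowPeak files, the relaxed lists are input for the irreproducible discovery rate, and the optimal list derives from all 3. The authors' signal value ranks regions within a list. The deposited −log10 q was used to rank regions in 1 alternative. Per those descriptions, both replicates had the same control. No name of an aligner or peak caller is given in the sources used here. Lists in dm3 were not used.

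Regions were given to genes of the Ensembl 115 annotation by summit. A replicate value is that of the overlapping region (at least 1 bp) with the nearest summit. Motifs were searched in the Release 6 sequence. The 48 further genes came from 50 listed names, 7 of them older symbols, of which 2 repeated a gene already listed. Named further genes were the 3 strongest and up to 2 without a region per role. Members and lists were chosen with earlier results of these data known, and no test was run on them. Counting was checked on simulated regions. Python 3.11.15, numpy 2.4.6, pandas 2.3.3 and matplotlib 3.10.9 were used.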

Additional observations from a re-analysis of the deposited data

How the results depend on the processing

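The count of 7 genes ranged from 5 to 9 over 9 alternatives. It was 5 in gene bodies alone, where Lip3 and Lip4 left, and 5 in the strongest 50% of optimal regions, where Lip4 and Lsd-1 left. With 1 replicate alone it ranged from 7 to 9, the higher value being from replicate 1, where Hsl and Seipin joined. In replicate 2 alone Hsl joined and Lip4 left. The share of all protein-coding genes is not given for gene bodies, the strongest 50% or 1 replicate alone. Those counts therefore cannot be read against it. The count of 26 regions was 14 in the strongest 50% and 14 within 1 kb of a TSS of the gene, and ran from 18 to 34 in the other alternatives. The median rank of the strongest region over the 7 genes was 1825, from 1206 to 1777 with 1 replicate alone, and 703 by −log10 q. With 1 replicate alone, the counts of genes and regions used the 5817 strongest regions of that replicate. For the ranks, any region of that replicate in the window counted, also outside the optimal list. At Lsd-1 the highest-ranked was the region near CG10214 that the pooled list lacks. Regions with either Hnf4 motif numbered 1, 2 within 250 bp and 6 with 1 mismatch allowed. No share of all optimal regions is given for either motif together, so these counts cannot be read against it. Looser matching also raised the share with CAAAGTCCA among all optimal regions on nuclear chromosomes. It went from 1.05% to 1.65% within 250 bp and to 7.86% with 1 mismatch. Regions seen in both replicates fell from 25 to 14 under 50% reciprocal overlap. The causes were not tested. Of genes with any relaxed pooled region, 62.0% had an optimal one, against 33.0% of all protein-coding genes. No read counts were given, so depth limits cannot be stated. No paired analysis was possible because there is 1 group.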

Other observations

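The 2 rankings of the optimal list, by signal value and by −log10 q, did not run in parallel at these genes. The strongest Lsd-2 region, at 517, had a −log10 q of 2.06, and the strongest Lpin region, at 486, had 1.89. The weakest bmm region, at 94.9, had 2.38. A wider window of 5 kb added 3 regions at Lsd-2, 2 at bmm, 2 at Lip3 and 1 at Lsd-1, and none at Hsl, mag or Seipin. In replicate 2, a region of 47.0 at rank 3003 lay past the end of mdy, 32 bp from the TSS of AspRS-m, with no overlapping region in replicate 1 or in the pooled list.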
